A study of Mus musculus with 30 samples.

Results

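Plcg1 and Plcg2 encode the phospholipase C gamma enzymes. They are 2 of the 29555 gene identifiers in the deposited gene tables and were taken by name, with every accessibility peak in or within 50 kb of either gene. They were chosen by their RNA levels across mouse strains, already seen in these libraries. Their levels by strain are therefore given as a description, with no test. In the peak table of epiblast stem cells (EpiSCs) of several strains, 10 peaks lay in the Plcg1 window and 26 in the Plcg2 window, of 181059 in all. The table that joins B6 EpiSCs with definitive endoderm (DE) had 14 and 27 such peaks, of 158917.

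Phospholipase C gamma is recruited to activated tyrosine kinases through its SH2 domains and is itself phosphorylated. It then cleaves the membrane lipid PIP2 into IP3, which opens calcium channels of the endoplasmic reticulum, and diacylglycerol, which recruits protein kinase C and RasGRP proteins. Plcg1 is expressed widely and acts below growth factor receptors such as those for Fgf, Egf and Pdgf. Plcg2 is best known from B cells, platelets and other blood cells, where the kinases Syk and Btk activate it.

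EpiSCs are primed pluripotent cells that resemble the epiblast around gastrulation. Here they came from C57BL/6 (B6), PWK/PhJ (PWK, an inbred strain of wild origin), DBA/2J (DBA) and B6.129 F1 mice, at passages 5 to 10. All EpiSCs grew on feeder cells in N2B27-based medium, with Fgf2, ActivinA and the Wnt inhibitor NVP-TNKS656. B6 DE was made from B6 EpiSCs over 46 h, per the labels, with the Wnt agonist CHIR99201 and ActivinA for 16 h and then ActivinA with LDN193189, a BMP inhibitor, for 24 h. CXCR4+ cells were then sorted with magnetic beads. RNA-seq covered 5 B6, 3 PWK and 3 B6.129 F1 EpiSC libraries, 1 DBA EpiSC library and 4 B6 DE libraries. ATAC-seq, which measures open chromatin by transposase insertion, covered 4 B6, 2 PWK and 1 DBA EpiSC libraries and 4 B6 DE libraries. The labels number the samples as biological replicates without saying whether the numbers are separate lines or mice, so p-values measure the spread between these samples.

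Total counts ran from 22829536 to 66563933 per RNA library and from 3751526 to 9571127 per ATAC library. All 10 DE markers on the list used as a check rose in B6 DE. Of 10 markers of primed pluripotency, 7 fell and 2 rose. The 11 feeder fibroblast markers summed to between 76.0 and 3015 CPM (counts scaled to library size) in B6 EpiSCs and to between 2441 and 3263 CPM in PWK EpiSCs. In B6.129 F1 EpiSCs they summed to between 158 and 249.7 CPM. Neuroectoderm markers, 6 genes, summed to between 6.07 and 54.8 CPM in B6 and between 0.899 and 1.64 CPM in PWK EpiSCs. In DE replicate 51, genes of chromosome 8, which carries Plcg2, stood 0.50 above the other DE libraries on the log2 scale (median of 714 genes), and chromosome 8 peaks stood 0.48 above them (median of 6070 peaks). For Plcg2 in DE, values without that library stand beside those with it for its RNA, its share, the summed window and most of the called peaks.

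Plcg1 (ENSMUSG00000016933) spans 44451 bp on the plus strand of chromosome 2, chr2:160731310-160775760 in GRCm38.p6. Its last 5314 bp overlap the gene Zhx3. Plcg2 (ENSMUSG00000034330) spans 136868 bp on the plus strand of chromosome 8, chr8:117498275-117635142, and no other RefSeq gene overlaps it. The promoters of both genes, from 250 bases before to 50 bases after the RefSeq start, are shown because accessibility was measured there. They are the sequence of the reference build GRCm38.p6, and no sequence of the PWK, DBA or F1 mice was examined. Capitals mark matches to the motifs searched on both strands, which were the CCAAT box (CCAAT), the GC box (GGGCGG), the E-box (CACGTG) and the TATA box (TATAAA).
Plcg1, chr2:160731060-160731359, plus strand: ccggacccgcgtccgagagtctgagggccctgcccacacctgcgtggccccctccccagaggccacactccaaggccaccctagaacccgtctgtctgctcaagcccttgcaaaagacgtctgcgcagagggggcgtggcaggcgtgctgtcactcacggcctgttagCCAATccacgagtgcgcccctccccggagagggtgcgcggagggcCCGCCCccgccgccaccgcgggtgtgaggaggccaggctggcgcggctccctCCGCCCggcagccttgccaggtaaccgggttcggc
Plcg2, chr8:117498025-117498324, plus strand: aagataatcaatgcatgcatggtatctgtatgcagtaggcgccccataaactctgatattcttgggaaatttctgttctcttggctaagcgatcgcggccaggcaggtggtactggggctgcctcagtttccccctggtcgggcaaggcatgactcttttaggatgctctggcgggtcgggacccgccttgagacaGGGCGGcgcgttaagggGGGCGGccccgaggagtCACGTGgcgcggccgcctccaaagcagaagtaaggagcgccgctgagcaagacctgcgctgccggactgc

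Both promoters were rich in G and C, at 72% for Plcg1 and 60.0% for Plcg2. The Plcg1 promoter held 1 CCAAT box, with its first base at -82 from the start, and 2 GC boxes at -37 and 16. The Plcg2 promoter held 2 GC boxes, at -54 and -37, and 1 E-box at -20. Neither held the TATA box letters. Of 32851 promoters of the same length, 37.4% held a CCAAT box, 35.7% a GC box, 7.2% the E-box and 13.6% the TATA box. None of these motifs overlapped another in either promoter.

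Plcg2 RNA was high in PWK EpiSCs and low in EpiSCs of every other strain. The 5 B6 libraries, replicates 1, 2, 4, 44 and 51, had 38.5, 43.8, 41.8, 39.1 and 41.8 CPM. The 3 PWK libraries had 367.3, 369.5 and 347.8 CPM. The DBA library had 40.4 CPM, inside the B6 range, and the 3 B6.129 F1 libraries had 34.99, 30.1 and 32.5 CPM. All 3 PWK libraries lay far above every other EpiSC library, and all 3 F1 libraries lay below the lowest B6 library.

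The group means were 361.5 CPM ± 11.96 (SD, n = 3) in PWK, 41.0 CPM ± 2.17 (SD, n = 5) in B6 and, in F1 EpiSCs, 32.5 CPM ± 2.46 (SD, n = 3). PWK stood 3.15 (SE 0.066) above B6 on the log2 scale, an 8.86-fold difference, and F1 stood at -0.37 (SE 0.067). These are the contrasts on which the genes were chosen. Of 14822 genes tested there, 12.0% were called higher and 14.5% lower in PWK, and 1.34% were called higher and 1.50% lower in F1. By log2 difference of PWK from B6, Plcg2 ranked 316 of the 14822 genes tested, 95 of 13560 protein-coding genes, and 13 of the 9376 protein-coding genes with a mean log2 CPM of at least 3. From highest to lowest the order was PWK, B6, DBA and F1, and of neighbours in it the B6 and DBA levels overlapped.

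Plcg1 RNA differed little between the strains. B6 replicates 1, 2, 4, 44 and 51 had 164, 121.3, 164.4, 139.8 and 114.7 CPM. PWK libraries had 123.8, 125.4 and 121.3 CPM, F1 libraries 154.2, 126.6 and 145.3 CPM, and the DBA library 114.0 CPM. PWK and F1 libraries lay inside the B6 range, and the DBA library lay just under its lowest value. The means were 142.0 CPM ± 14.1 (SD, n = 3) in F1, 140.8 CPM ± 23.2 (SD, n = 5) in B6 and, in PWK, 123.5 CPM ± 2.09 (SD, n = 3). On the log2 scale PWK stood at -0.18 (SE 0.12) and F1 at -0.03 (SE 0.12) against B6. In order of the mean, F1, B6 and PWK overlapped their neighbours, and the single DBA value lay below the PWK libraries.

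**Figure D1:**
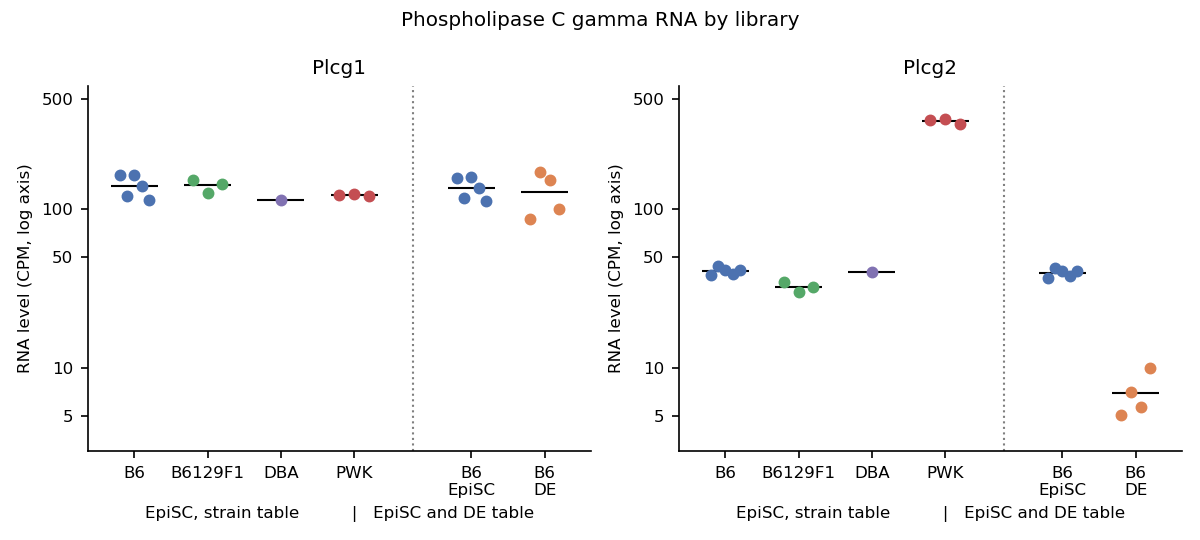
RNA level of Plcg1 (left) and Plcg2 (right) in each library, in CPM on a log axis; points are libraries, lines are group means, and the dotted line parts the EpiSC strain table from the B6 EpiSC and DE table, which were scaled separately. Plcg2 stands at 347.8 to 369.5 CPM in PWK and at 5.04 to 9.98 CPM in DE, while the Plcg1 groups lie between 86.6 and 171.8 CPM.

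As a share of all reads on both genes, Plcg2 took 22.9% ± 3.57 (SD, n = 5) in B6 EpiSCs, 18.7% ± 0.478 (SD, n = 3) in F1, 26.2% in the DBA library and 74.5% ± 0.339 (SD, n = 3) in PWK. This is a share of reads, uncorrected for transcript length, and does not compare molecules of the genes.

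Feeder markers were also high in PWK libraries, so their sums are set beside the levels of both genes. B6 replicate 51 had a feeder sum of 3015 CPM, within the PWK range, and 41.8 CPM of Plcg2. B6 replicate 1 had a feeder sum of 76.0 CPM and 38.5 CPM of Plcg2. For Plcg1, the B6 libraries with the lowest feeder sums, replicates 1 and 4 (76.0 and 428.2 CPM), had the highest levels, and replicate 51 had the lowest. The part of feeder cells in the levels of either gene was not tested. Blood and endothelial markers, 16 genes, summed to between 31.2 and 39.0 CPM in PWK and between 10.3 and 25.0 CPM in B6 EpiSCs. Among the markers on that list, Cd79b was at 0 in all PWK libraries and Tyrobp in all B6 libraries. The part of blood cells in the PWK level of Plcg2 was not tested. Of 7 of these markers tested, Lcp1 was called higher in PWK, and Tek and Laptm5 lower. In bulk RNA, fewer cells of a type and less RNA per cell cannot be told apart.

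The EpiSC genes most like each member were ranked by Pearson's r of log2 CPM over the 12 EpiSC libraries, among 9209 genes with a mean log2 CPM of at least 3. For Plcg2 these were Rpl37rt (r = 0.982), Ercc3 (0.981), Terf2ip (0.978), Arl4a (0.978) and Rps2-ps13 (0.974). All 5 were higher in PWK, and over the 9 libraries without PWK their r fell to between -0.01 and 0.52. For Plcg1 they were Tmc7 (0.977), Slc31a1 (0.971), Cyfip2 (0.967), Clic4 (0.964) and Rnf141 (0.960), and without PWK r was between 0.97 and 0.98. These values describe libraries that share strain and feeder content. Rpl37rt and Rps2-ps13 are named as copies of ribosomal protein genes, whose reads may be split between copies.

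In differentiation of B6 EpiSCs to DE, Plcg2 RNA fell while Plcg1 did not pass the test. This comparison uses the same B6 EpiSC libraries as the strain comparison, scaled with the DE libraries. Plcg2 stood at 36.8, 42.5, 40.8, 38.2 and 41.0 CPM in EpiSC replicates 1, 2, 4, 44 and 51. In DE replicates 2, 4, 44 and 51 it stood at 5.04, 7.02, 5.67 and 9.98 CPM, from 99, 423, 145 and 658 counts. The groups did not overlap, and the highest DE value was that of replicate 51. The mean went from 39.9 CPM ± 2.33 (SD, n = 5) to 6.93 CPM ± 2.198 (SD, n = 4). Plcg2 fell by 2.52 on the log2 scale (SE 0.22), 5.73-fold, with a Benjamini-Hochberg adjusted p of 7.4e-06 in the quasi-likelihood test of edgeR. Without DE replicate 51 the fall was 2.75 (edgeR adjusted p = 7.0e-06). Of 14085 genes tested, 31.5% were called higher and 30.6% lower in DE, so a call in this comparison is common.

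Plcg1 stood at 156.7, 117.8, 160.7, 136.5 and 112.6 CPM in the same EpiSC libraries. It stood at 86.6, 171.8, 152.6 and 100.9 CPM in DE replicates 2, 4, 44 and 51. DE libraries lay on both sides of the EpiSC range. The log2 change was -0.10 (SE 0.22, 95% interval -0.58 to 0.39, edgeR adjusted p = 0.716). The interval leaves room for changes of those sizes in either direction.

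The Plcg2 share of reads on both genes was 22.9% ± 3.57 (SD, n = 5) in EpiSCs and 5.50% ± 2.48 (SD, n = 4) in DE. The difference of -17.4 percentage points had p = 0.016 in a two-sided exact permutation test, the smallest that 5 against 4 libraries can give. Without DE replicate 51 it was -18.5 points (exact permutation p = 0.036). Feeder markers fell in DE (9 of 11 called lower), with sums between 66.4 and 252.8 CPM. B6 EpiSC replicate 1, with a feeder sum of 72.6 CPM, had 36.8 CPM of Plcg2. The part of feeder cells in the fall of Plcg2 was not tested. Of the 7 blood and endothelial markers tested, 3 rose and 1 fell in DE. Their sum was between 9.98 and 23.9 CPM in EpiSCs and between 23.3 and 88.6 CPM in DE. Gata1, an erythroid and megakaryocyte factor, rose from 0.197 to 33.7 CPM, Laptm5 from 0.521 to 4.85 CPM and Cd79b from 0.159 to 1.76 CPM. Among those at 0 in all DE libraries were Ptprc, Btk and Tal1. The part of blood cells in the Plcg2 change was not tested.

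Around Plcg1, several peaks were called higher in DE, and its RNA did not pass the test. In the ATAC table of B6 EpiSCs and DE, 11 of the 14 Plcg1 peaks passed the filter on low counts, 7 were called higher and 1 lower. Over the 113870 peaks tested, 32.6% were called higher and 25.0% lower. Of the 7 higher peaks, 4 had under 1 CPM in EpiSCs and passed the filter through their DE counts. With at least 10 counts in every library, 3 peaks of the window were tested and 0 called by edgeR. Peaks are given by their position in the deposited table, and whether its starts count from 0 or 1 is not stated.

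The largest peak of the Plcg1 window in DE lay inside the gene, 8.7 kb after the start (chr2:160739777-160740209). It had 3.52, 5.21, 1.28 and 2.17 CPM in EpiSC replicates 1, 4, 44 and 51, and 40.5, 30.1, 40.8 and 44.1 CPM in DE replicates 2, 4, 44 and 51. It was well below the start peak in EpiSCs and the most open peak of the window in DE. This was a log2 rise of 3.55 (SE 0.27), at an adjusted p of 2.6e-09 in edgeR. A second peak inside the gene, 3.0 kb after the start (chr2:160734216-160734412), had 0 to 1.70 CPM in EpiSCs and 9.80 to 18.9 CPM in DE, a rise of 4.05 (SE 0.47). Another, 11.7 kb after the start, rose by 1.48 (SE 0.40).

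The peak over the Plcg1 start (chr2:160731110-160731311) had 9.28, 11.2, 7.14 and 13.0 CPM in EpiSCs and 13.4, 14.5, 11.7 and 14.7 CPM in DE. These ranges overlapped, and the change of 0.39 (SE 0.23) was not called (edgeR adjusted p = 0.155). The peak 0.9 kb after the start had 1.76 to 3.41 CPM in EpiSCs and 3.46 to 4.44 CPM in DE. Its groups did not overlap, but the change of 0.64 (SE 0.39) was not called (edgeR adjusted p = 0.163). The peak 12.9 kb after the start, the most open of the gene in EpiSCs, had 15.02 to 20.9 CPM in EpiSCs and 16.1 to 24.5 CPM in DE and was not called, with a change of 0.25. Outside the gene, peaks 4.8 kb before the start, in Gm52567, and 53.2, 56.6 and 74.8 kb after it, in Zhx3, rose by 2.76, 2.96, 2.46 and 3.44. The peak 30.8 kb before the start, in Top1, fell by 2.23 (SE 0.57). The other 3 peaks did not pass the filter on low counts, and their group means were between 0 and 1.72 CPM.

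Summed over the 14 peaks, the Plcg1 window had 43.8, 49.9, 49.99 and 45.5 CPM in EpiSC replicates 1, 4, 44 and 51. It had 126.6, 134.1, 126.5 and 124.2 CPM in DE replicates 2, 4, 44 and 51. Every DE library lay above every EpiSC library, with a log2 ratio of means of 1.43 and p = 0.029 in a two-sided exact permutation test, the smallest that 4 against 4 can give. The covered length was the same 2472 bp in all libraries.

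Around Plcg2, peaks changed in both directions in DE. Of 27 peaks, 21 passed the filter, 6 were called higher and 5 lower. All counts of calls here stand beside 32.6% higher and 25.0% lower over the 113870 peaks tested, so calls in both directions are common. With at least 10 counts in every library, 7 were tested and 2 called, at 32.8 and 4.6 kb before the start, both lower. Of the 9 tested peaks upstream of the gene, 4 fell and 1 rose, and of the 10 tested inside it, away from the start, 5 rose and 1 fell. The 5 rises lay between 36.1 and 77.4 kb after the start, and 3 of them had under 1 CPM in EpiSCs and passed the filter through their DE counts. Without DE replicate 51, 11 peaks were again called, with the one 32.8 kb before the start lost and one 102.7 kb after it, below the filter with all libraries, called lower (-2.02, edgeR adjusted p = 0.018).

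The most open peak of the Plcg2 window in EpiSCs lay 4.6 kb before the start (chr8:117493405-117493870). It had 29.7, 31.6, 33.4 and 32.8 CPM in EpiSC replicates 1, 4, 44 and 51, and 14.4, 9.87, 10.3 and 14.4 CPM in DE replicates 2, 4, 44 and 51. The groups stood well apart, and the peak fell by 1.40 on the log2 scale (SE 0.18), or by 1.51 without DE replicate 51. The peak 17.6 kb before the start (chr8:117480604-117480745) had 5.11 to 8.96 CPM in EpiSCs and 1.29 to 2.59 CPM in DE and fell by 1.97 (SE 0.38), or by 2.18 without DE replicate 51. Peaks 39.6 and 32.8 kb before the start fell by 1.33 and 0.67, and without DE replicate 51 the first fell by 1.56 and the other was no longer called (edgeR adjusted p = 0.063). Inside the gene, the peak 62.9 kb after the start fell by 1.38, or by 1.62 without DE replicate 51. Its groups overlapped, at 2.01 to 6.24 CPM in EpiSCs and 1.03 to 2.59 CPM in DE, and with EpiSC replicate 1 and DE replicate 2 both left out it was not called (-1.08, edgeR adjusted p = 0.112).

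The peak over the Plcg2 start (chr8:117498211-117498305) had 3.84, 5.51, 2.55 and 5.11 CPM in EpiSCs and 2.47, 2.47, 2.43 and 4.90 CPM in DE, the last in replicate 51. The change of -0.55 was not called, with -0.86 without that library (edgeR adjusted p = 0.081). Another open peak, 10.4 kb after the start, had 24.5 to 29.1 CPM in EpiSCs and 23.1 to 32.6 CPM in DE, a change of -0.03 that was not called. A peak 23.1 kb before the start changed by 0.12 and was not called.

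Among the rises, the peak 41.6 kb after the start (chr8:117539748-117539925) had 0.32, 0.40, 0 and 0.31 CPM in EpiSCs and 4.53, 4.44, 5.30 and 6.34 CPM in DE, a rise of 4.03 (SE 0.55). It was close to absent in EpiSCs and modest in DE. Peaks 50.5 and 36.1 kb after the start rose by 3.40 and 2.76. Without DE replicate 51 the 3 rises were 3.90, 3.23 and 2.81. The summed window had 142.8, 139.3, 136.5 and 131.7 CPM in EpiSC replicates 1, 4, 44 and 51 and 110.5, 114.0, 118.6 and 125.4 CPM in DE replicates 2, 4, 44 and 51. Every DE library lay below every EpiSC library (log2 ratio -0.23, two-sided exact permutation p = 0.029, the smallest possible). Without DE replicate 51 it was -0.27 (exact permutation p = 0.057, the smallest for 4 against 3). With the window widened to 100 kb the ratio was -0.04 (exact permutation p = 0.629).

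**Figure D2:**
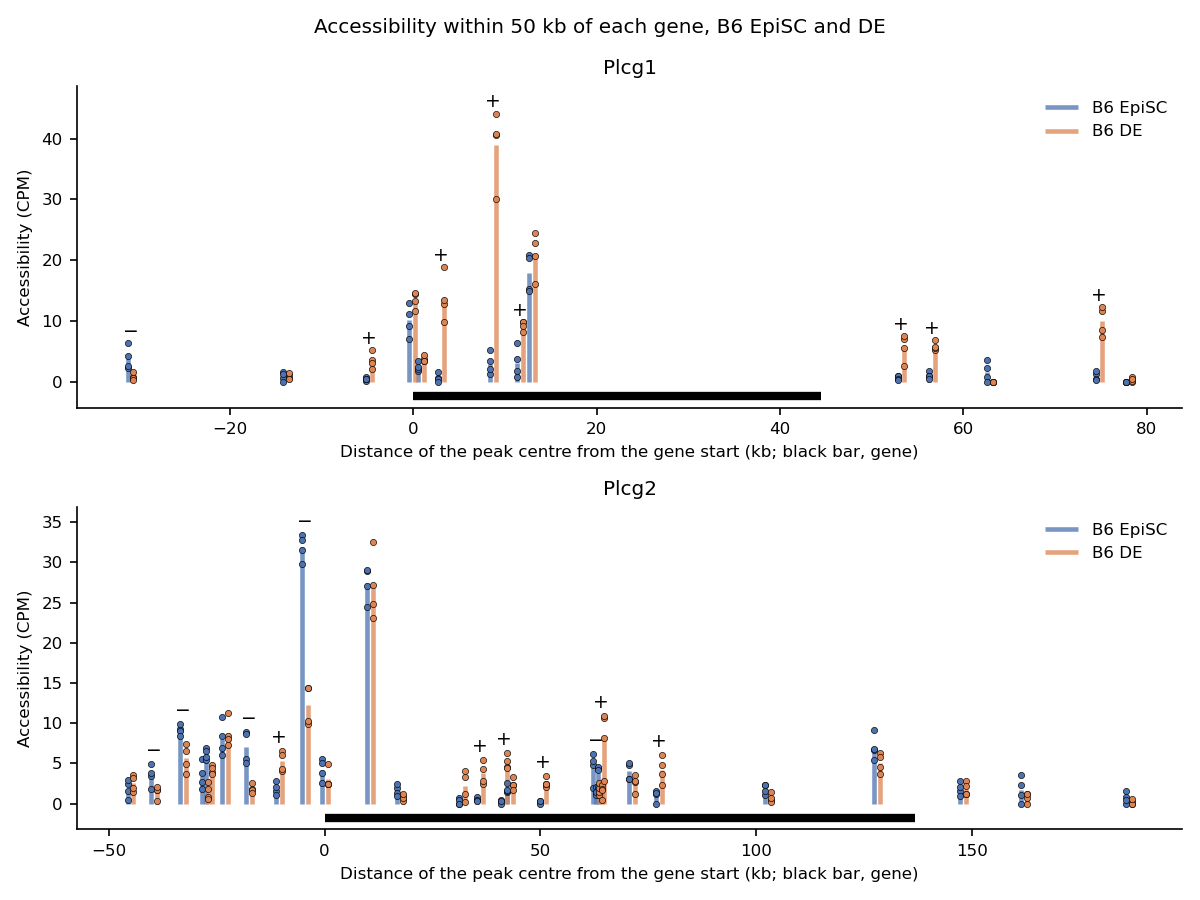
Accessibility (CPM) of each peak within 50 kb of Plcg1 (top) and Plcg2 (bottom) against the distance of its centre from the gene start in kb; bars are group means of 4 B6 EpiSC and 4 B6 DE libraries drawn side by side, points are libraries, and plus and minus signs mark peaks called higher or lower in DE. The Plcg1 peak at 8.7 kb reaches 30.1 to 44.1 CPM in DE, and the Plcg2 peak 4.6 kb before the start drops to between 9.87 and 14.4 CPM.

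Between PWK and B6 EpiSCs, 1 peak near Plcg2 and none near Plcg1 was called by edgeR, and neither start peak was called. In the ATAC table of EpiSC strains, 22 of 26 Plcg2 peaks and 8 of 10 Plcg1 peaks passed the filter. Of these, 1 Plcg2 peak was called higher, none was called lower, and no Plcg1 peak was called in edgeR's quasi-likelihood test. Over the 137667 peaks tested, 1.42% were called higher and 3.68% lower in PWK. At an unadjusted p under 0.05 there were 6 of 22 peaks near Plcg2 and 1 of 8 near Plcg1, against 16.9% of all peaks tested, and the DESeq2 Wald test called 1 and 0. The 6 differed in both directions, with log2 differences of -3.05, 1.01, -0.98 and -0.98 at 45.0, 27.8, 23.1 and 17.6 kb before the start and of 1.42 and 1.68 at 64 and 147.9 kb after it. The 1 near Plcg1, at 11.7 kb after the start, differed by -2.18 (95% interval -4.18 to -0.25). With 2 PWK libraries this comparison is weak. In counts simulated at this depth, changes were placed only on peaks with a mean level above the median. Of these, the test recovered 6 of 100 peaks with a 2-fold and 52 of 100 with a 4-fold change. Recovery of less open peaks was not simulated.

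The peak 4.6 kb before the Plcg2 start (chr8:117493397-117493870) had 29.1, 33.0, 33.4 and 32.4 CPM in B6 replicates 1, 4, 44 and 51. It had 42.0 and 30.5 CPM in PWK and 39.6 CPM in DBA. The log2 difference of PWK from B6 was 0.19 (95% interval -0.19 to 0.58). The peak over the start had 3.73, 5.73, 2.51 and 5.05 CPM in B6, 4.61 and 5.21 CPM in PWK and 3.88 CPM in DBA, a difference of 0.20 (95% interval -0.70 to 1.11). At the start peak the PWK and DBA values lay inside the B6 range, and at the other peak 1 PWK library and DBA lay above it. The peak 10.4 kb after the start had 23.9 to 30.4 CPM in B6, 33.0 and 21.2 CPM in PWK and 36.7 CPM in DBA. The peak 32.8 kb before it had 8.27 to 9.80 CPM in B6, 5.21 and 6.73 CPM in PWK and 8.39 CPM in DBA, and its difference of -0.60 was not called.

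The called Plcg2 peak lay inside the gene, 64 kb after the start (chr8:117562133-117562477). It had 4.51, 5.32, 2.01 and 4.29 CPM in B6 replicates 1, 4, 44 and 51, 14.2 and 8.03 CPM in PWK and 7.77 CPM in DBA. Both PWK libraries and the DBA library lay above the B6 range. The difference was 1.42 (SE 0.38, edgeR adjusted p = 0.044). Without PWK BioRep698 it was 0.96 (edgeR adjusted p = 0.275), and without B6 replicate 1, 4 or 51 the adjusted p was 0.113, 0.078 or 0.083. The overlapping peak of the other table, chr8:117562193-117562409, rose in DE by 1.07 (1.28 without DE replicate 51), while Plcg2 RNA fell there. The groups overlapped at that peak, with 2.04 to 4.61 CPM in EpiSCs and 2.88 to 10.9 CPM in DE.

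Near Plcg1, the peak over the start (chr2:160731113-160731330) had 7.04 to 12.9 CPM in B6, 6.73 and 7.70 CPM in PWK and 10.3 CPM in DBA, a difference of -0.49 for PWK. The peaks 0.4 and 0.9 kb after the start differed by 0.08 and 0.30. The peak 12.9 kb after the start had 14.8 to 20.6 CPM in B6, 23.9 and 12.6 CPM in PWK and 20.5 CPM in DBA, a difference of 0.05. The PWK libraries fell on both sides of the B6 range at that peak.

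The summed Plcg2 window had 145.4, 148.7, 140.0 and 132.2 CPM in B6, 158.2 and 138.9 CPM in PWK and 155.8 CPM in DBA. The summed Plcg1 window had 38.9, 45.6, 47.8 and 45.5 CPM in B6, 45.9 and 35.5 CPM in PWK and 41.6 CPM in DBA. PWK and B6 overlapped in both windows. The log2 ratios of PWK to B6 were 0.07 and -0.13, each with p = 0.533 in a two-sided exact permutation test, and 2 against 4 libraries cannot give a p under 0.067. Without PWK BioRep698 the Plcg2 ratio was -0.03, and without the unnumbered PWK library the Plcg1 ratio was 0.05.

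**Figure D3:**
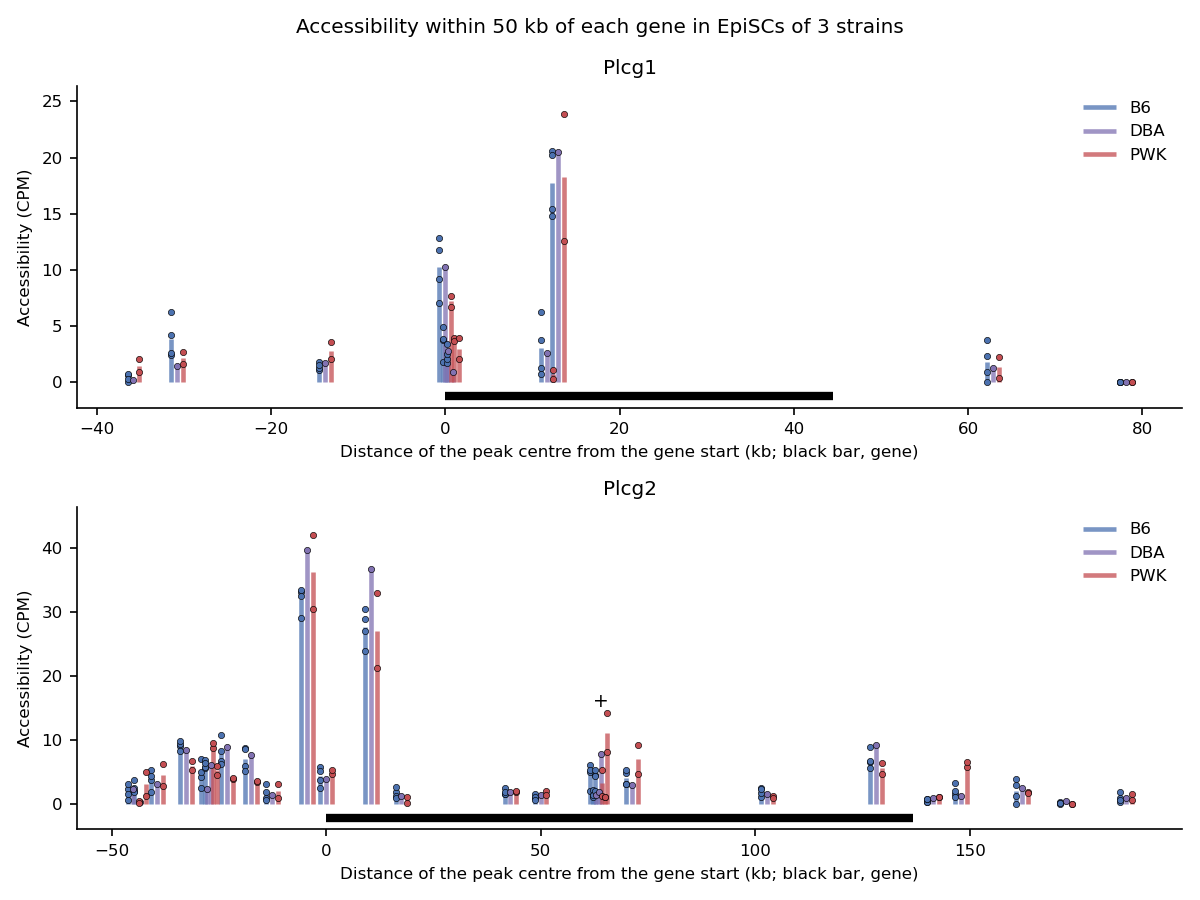
Accessibility (CPM) of each peak within 50 kb of Plcg1 (top) and Plcg2 (bottom) in EpiSCs of B6 (4 libraries), DBA (1) and PWK (2) against the distance of its centre from the gene start in kb; bars are group means drawn side by side, points are libraries, and the plus sign marks the peak called higher in PWK. The Plcg2 peak 4.6 kb before the start stands at 29.1 to 33.4 CPM in B6, 30.5 and 42.0 CPM in PWK and 39.6 CPM in DBA. The one 10.4 kb after it stands at 23.9 to 30.4 CPM in B6, 21.2 and 33.0 CPM in PWK and 36.7 CPM in DBA. The called peak lies at 64 kb.

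Genes beside the members were also compared. Within 200 kb of Plcg1, 5 genes were tested. In DE, Zhx3, a zinc finger and homeobox repressor that overlaps the end of Plcg1, rose by 1.97 (SE 0.29), from 2.43 CPM ± 0.500 (SD, n = 5) to 9.55 CPM ± 2.45 (SD, n = 4). Chd6, a chromatin remodeller, fell by 1.90 (SE 0.17) and Top1, DNA topoisomerase I, fell by 1.08 (SE 0.18). Lpin3, a phosphatidate phosphatase, and Emilin3 changed by 0.15 and 0.24 and were not called. Reads in the overlap of Plcg1 and Zhx3 cannot be assigned with certainty, since the use of strand in counting is not given in the sources used here.

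Within 200 kb of Plcg2, Cmip and Mphosph6 were tested and both rose in DE, by 1.31 (SE 0.18) and 1.23 (SE 0.18), while Plcg2 between them fell. Hsd17b2 and Sdr42e1 did not pass the filter on low counts, with at most 0.20 CPM in any DE library. In PWK against B6 EpiSCs, Mphosph6 was lower by a log2 difference of -0.27 (SE 0.071, edgeR adjusted p = 0.017), and Cmip differed by 0.01 and was not called. The Mphosph6 call was lost when any of the 3 PWK libraries was left out and with total-count scaling. Near Plcg1, Zhx3 was higher in PWK by 1.41 (SE 0.26, edgeR adjusted p = 0.0026), at 6.62 CPM ± 0.581 (SD, n = 3) against 2.50 CPM ± 0.507 (SD, n = 5). No neighbour of either gene was called in F1, by edgeR's quasi-likelihood test.

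**Figure D4:**
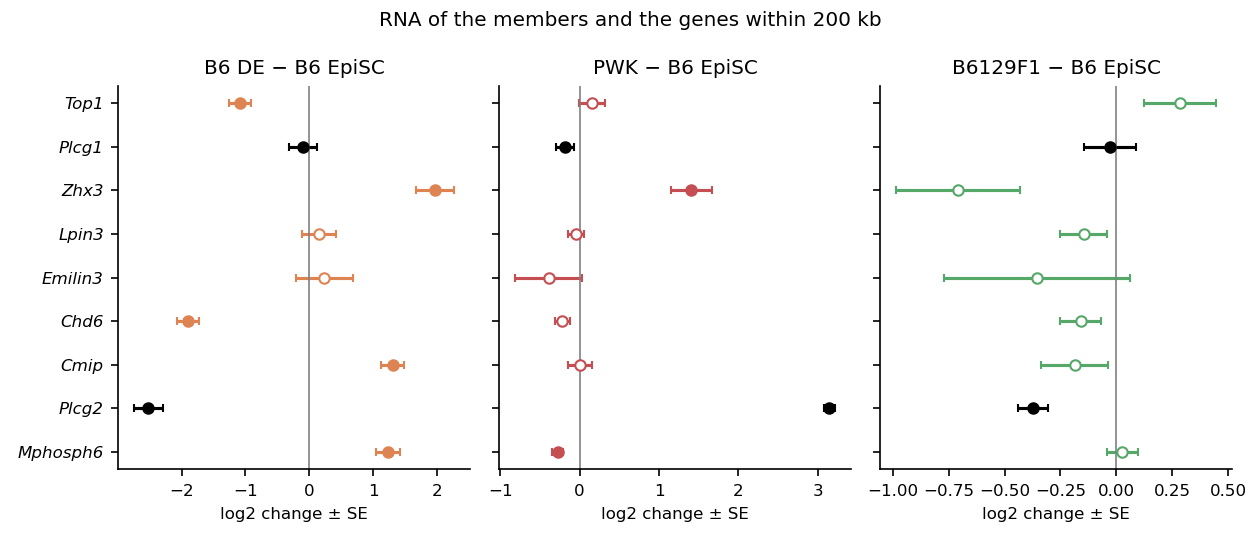
Log2 change (± SE) of RNA for Plcg1, Plcg2 and the tested genes within 200 kb, each against B6 EpiSCs, for DE (left), PWK (middle) and F1 (right), with a separate axis range in each panel; black points are the members, filled colours are called genes and open points are genes not called. In PWK, Plcg2 stands at 3.15 while Cmip and Mphosph6 beside it lie at 0.01 and -0.27.

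Of all genes tested, 31.5% rose and 30.6% fell in DE, and 12.0% were higher and 14.5% lower in PWK. Counts of calls in this and the following lists stand beside these shares. The other phospholipase C isozymes were set beside the gamma genes. Of 13, 12 were tested in DE, where 3 rose and 5 fell, with a median log2 change of -0.62 against -0.01 over all genes tested. Plce1, the isozyme activated by Ras-family GTPases, fell by 3.92 (SE 0.29), from 23.0 CPM ± 6.90 (SD, n = 5) to 1.51 CPM ± 0.287 (SD, n = 4). Plch1 fell by 2.61 (SE 0.24). Plcb3, a target of Gq proteins, rose by 0.96 (SE 0.24), and Plcd3 rose by 1.04 (SE 0.26). Plcb1 had 1.76 CPM in EpiSCs and no count in the 4 DE libraries, and was at least 100.4-fold lower against a floor of 3 counts over the group.

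In PWK against B6 EpiSCs, 3 of 12 isozymes were called higher and 1 lower, with a median log2 difference of 0.21 against -0.01 over all genes. Plcb4 was higher by 0.49 (SE 0.13), at 32.8 CPM ± 2.81 (SD, n = 3) against 23.5 CPM ± 3.61 (SD, n = 5). Plcd3 was lower, with a log2 difference of -0.71 (SE 0.22). The Plcb4 call was lost without PWK BioRep698 or BioRep695, and the Plcd3 call without any one PWK library, without B6 replicate 4 or 44, without the unnumbered F1 library, in a fit to B6 and PWK alone, and with total-count scaling. Plcd4 and Plcb2, at 4.25 and 2.26 CPM in PWK, were the other called isozymes.

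**Figure D5:**
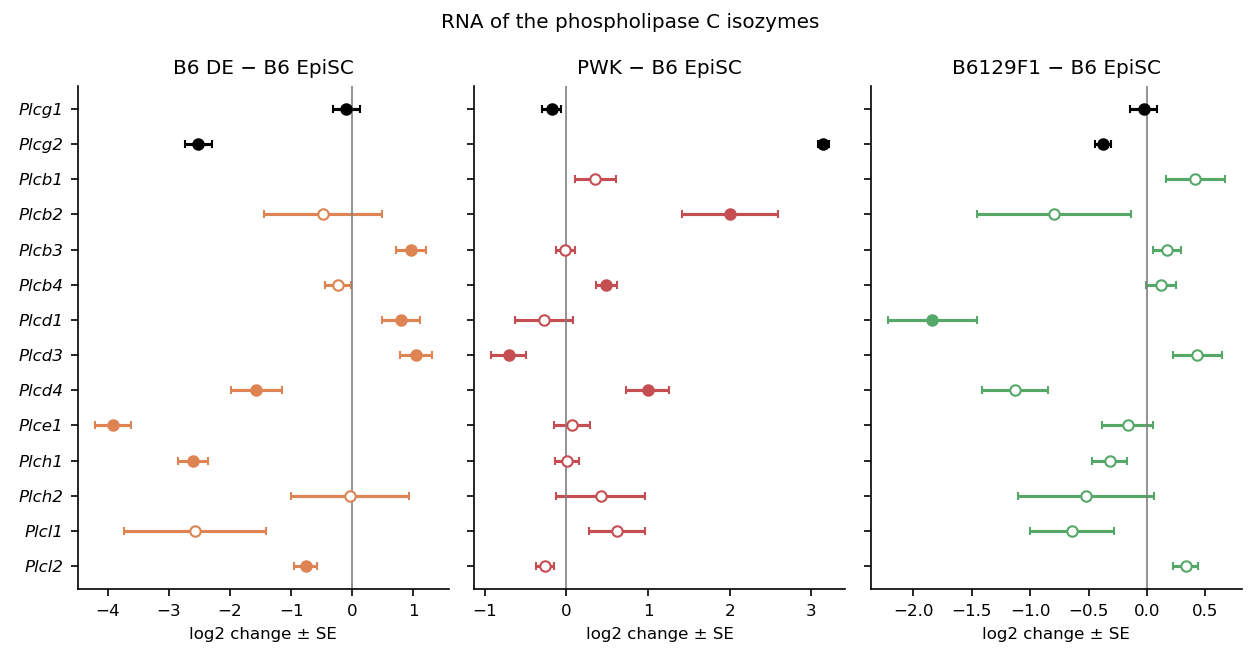
Log2 change (± SE) of RNA for the phospholipase C isozymes, each against B6 EpiSCs, for DE (left), PWK (middle) and F1 (right), with a separate axis range in each panel; black points are Plcg1 and Plcg2, filled colours are called genes and open points are not called, and Plcb1 is left out for DE, where it had no count. Plcg2 lies at -2.52 in DE and 3.15 in PWK, and the highest other isozyme in PWK, Plcb2, lies at 2.00.

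Of 15 receptor tyrosine kinases tested upstream of the enzymes, 6 rose and 7 fell in DE (median log2 change -0.86). Kit rose by 3.95 (SE 0.44), Fgfr2 by 3.29 (SE 0.29) and Flt1, a Vegf receptor, by 2.77 (SE 0.35), whereas Fgfr1 fell by 3.04 (SE 0.50), from 215.2 CPM ± 58.4 (SD, n = 5) to 26.1 CPM ± 20.4 (SD, n = 4). In PWK against B6 EpiSCs 2 of 15 were higher and none was lower, by edgeR's quasi-likelihood test (median 0.42). Egfr was higher by 0.87 (SE 0.20), a call that was lost without PWK BioRep698 (edgeR adjusted p = 0.053). The other was Fgfr2.

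Of 18 cytoplasmic kinases, adaptors and ubiquitin ligases tested in DE, 4 rose and 10 fell (median -0.77). Syk, a kinase that activates phospholipase C gamma below immune receptors, fell by 2.42 (SE 0.27), from 21.4 CPM ± 2.57 (SD, n = 5) to 3.97 CPM ± 1.30 (SD, n = 4). Lck, a Src-family kinase, fell by 2.08 (SE 0.31) and Frs2, an adaptor of Fgf receptors, by 1.73 (SE 0.20). Vav3, a guanine nucleotide exchange factor, rose by 2.83 (SE 0.26). Of the 19 tested between PWK and B6 EpiSCs, 1 was higher and 1 lower (median -0.06). Syk was the higher one, at 39.7 CPM ± 1.61 (SD, n = 3) against 22 CPM ± 2.53 (SD, n = 5), a difference of 0.86 (SE 0.11, edgeR adjusted p = 2.3e-04), and the DBA library had 30.9 CPM, above the B6 range. Vav2 was lower, with a difference of -0.23 (SE 0.059), and its call was lost without PWK BioRep698 or BioRep695 and with total-count scaling.

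Genes that supply the substrate PIP2 gave 3 rises and 5 falls among 16 tested in DE (median -0.22). Pip4k2b, a phosphatidylinositol phosphate kinase, fell by 5.20 (SE 0.28), from 125.0 CPM ± 11.4 (SD, n = 5) to 3.37 CPM ± 1.16 (SD, n = 4). Of the CDP-diacylglycerol synthases, Cds1 rose by 2.94 (SE 0.24) and Cds2 fell by 1.41 (SE 0.15). Pi4ka fell by 2.26 (SE 0.87, edgeR adjusted p = 0.043), a call lost when DE replicate 44 or 51 or any 1 of the EpiSC libraries was left out, without the filter on low counts, and in the DESeq2 Wald test. In PWK against B6 EpiSCs, Pitpnc1 and Pitpnb, phosphatidylinositol transfer proteins, were lower, with differences of -0.42 (SE 0.083) and -0.37 (SE 0.075). Pi4kb was higher by 0.30 (SE 0.086), a call lost without any one PWK library or B6 replicate 44. The list's median in PWK was -0.01.

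In the IP3 and calcium branch, 8 of 30 genes tested rose and 11 fell in DE (median -0.03). Itpr2, an IP3 receptor, rose by 2.61 (SE 0.21), whereas Camk2b fell by 4.55 (SE 0.67) and Itpkb, an IP3 kinase, by 2.65 (SE 0.32). In PWK only 1 of 30 was called, Inpp5a at -0.27 (SE 0.088, edgeR adjusted p = 0.044; median of the list 0.13). That call was lost without any one PWK or F1 library, without B6 replicate 1, 4 or 44, with other scalings and filters, and in a fit to B6 and PWK alone. In the diacylglycerol branch, 5 of 24 rose and 11 fell in DE (median -0.59). Prkch, a protein kinase C, rose by 4.92 (SE 0.56), and Rasgrp2, a Ras-family exchange factor, Dgkd, a diacylglycerol kinase, and Prkd3, a protein kinase D, fell by 2.43 (SE 0.33), 1.47 (SE 0.19) and 1.42 (SE 0.16). In PWK, 3 of 23 were higher and none lower by edgeR's test (median -0.03), Prkca and Dgki among them.

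Over all 6 lists, 29 of 115 genes tested rose and 49 fell in DE, and 10 of 115 were higher and 5 lower in PWK. Over all genes tested the shares were 31.5% higher and 30.6% lower in DE, and 12.0% higher and 14.5% lower in PWK. Leaving out PWK BioRep698 reduced the 15 calls in PWK to 6, and leaving out BioRep695 or the unnumbered library reduced them to 9. The share of all genes called in PWK fell too, from 26.5% to 16.3%, 16.2% and 16.3% in that order. In F1, 2 pathway genes were higher and 2 lower, beside 1.34% higher and 1.50% lower over all genes tested. Yes1, a Src-family kinase, was higher in F1 by 0.66 (SE 0.095) and Ppp3cb, a calcineurin subunit, by 0.30 (SE 0.055), and Plcd1 and Dgki were lower. A fit to the B6 and F1 libraries alone called none of these genes, and 0 of all 14132 genes tested.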

How the data were processed

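RNA-seq and ATAC-seq libraries were grouped by strain and cell state from the labels. The deposited tables hold raw counts per gene and per peak. The submitters' processing notes name fastp, Bowtie2, MACS2, featureCounts, Salmon and DESeq2, and the build mm10; versions, and the tool behind each table, are not given in the sources used here. Each peak table lists 1 set of peaks with counts for all its libraries, per the file headers. PWK DE (3 samples) is not analysed here, leaving 27 of 30 samples, and 17 columns of other series were not used. A PWK RNA column carries a number found in no label, and an F1 RNA column and a PWK ATAC column carry no replicate number of the labels. They were placed by strain and are called unnumbered here. The label of the DBA RNA sample reads BioRep698, a number that a PWK sample also holds, and that sample was placed by its line name.

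Counts were tested with edgeR 4.0.16 in R 4.3.3 (TMM scaling, filterByExpr, robust quasi-likelihood fits, Benjamini-Hochberg adjustment over all features, calls at an adjusted p under 0.05). The DE fits used both B6 groups, and the EpiSC fits used B6, PWK and, for RNA, F1. CPM use TMM-scaled library sizes within each table. Single values were compared with exact permutation tests in SciPy 1.17.1, and paired differences with exact sign-flip tests. The fits were tested on simulated data with 100 features changed 2-fold and 100 changed 4-fold, all with a mean level above the median. Of these, 47 and 95 were recovered for RNA in DE, 90 and 99 for RNA in PWK and 32 and 86 for ATAC in DE.

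Members and lists were chosen with earlier results of these data known. Named were, per list and comparison, up to 4 called genes with the largest change and a mean log2 CPM of at least 3, all tested genes within 200 kb, the 5 genes most like each member, and in each window the peaks within 1 kb of the start, the 3 most open and up to 3 called with the largest change in each direction. Plcb1, Plcb2, Plcd1, Plcd4, Fgfr2 in PWK, Prkca, Dgki and the other peaks given were named after their values were seen. Some genes that this rule takes are not reported here. Alternatives were RLE and total-count scaling, DESeq2 1.42.0, a minimum of 10 counts in each library or no filter, fits to the groups compared alone, the replicate number as a block, windows of 10 and 100 kb, and each library left out in turn.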

Additional observations from a re-analysis of the deposited data

Results flagged for a closer look

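In 133 groups of 4 or 5 libraries, 1 library stood apart from the others by Dixon's test in 4, and chance flags about 1 group in 20. The peak over the Plcg2 start had 4.90 CPM in DE replicate 51 against 2.43 to 2.47 CPM in the other DE libraries. Dgkd RNA stood at 98.6 CPM in EpiSC replicate 51 against 124.7 to 131.5 CPM. Pip4k2b RNA stood at 1.64 CPM in DE replicate 44 against 3.86 to 4.02 CPM. Vav3 RNA stood at 2.67 CPM in EpiSC replicate 2 against 4.92 to 5.70 CPM.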

How the results depend on the processing

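The fall of Plcg2 in DE kept its direction and its call under every alternative run, with -2.75 to -2.39 when a library was left out. The Plcg1 change in DE ran from -0.27 to 0.058, with 0.058 without DE replicate 2 and 0.00 without DE replicate 51. Peaks called in DE near Plcg1 and Plcg2 numbered 0 and 2 with at least 10 counts in every library, where fewer peaks were tested, and 5 and 7 within 10 kb. Leaving out 1 library, the summed ratios in DE ran from 1.40 to 1.46 for Plcg1 and from -0.27 to -0.20 for Plcg2, each with an exact permutation p of 0.057, the smallest for 4 against 3. The summed Plcg2 ratio was -0.15 within 10 kb and -0.037 within 100 kb, and for DBA 0.26 within 10 kb. In PWK, 1 peak was called within 100 kb of Plcg1. Near Plcg2, 0 were called with at least 10 counts in every library, and 0 to 1 when a library was left out. The summed PWK ratios ran from -0.32 to 0.047 for Plcg1 and from -0.027 to 0.16 for Plcg2 when a library was left out. Pathway genes called in PWK numbered 6 to 21 over the libraries left out. The share of all genes called in those fits ran from 16.2% without PWK BioRep695 to 33.2% without B6 replicate 51. In F1 the pathway genes called numbered 0 to 11, with 15 in the DESeq2 Wald test and 0 in a fit to B6 and F1 alone. The share of all genes called in F1 moved too. It was 2.84% in the main fit, 13.2% without B6 replicate 1, 13.2% in the DESeq2 Wald test and 0 in the fit to B6 and F1 alone. The cause was not tested.

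Signs turned for results that were not called. Leaving out a library gave -0.061 to 0.11 for Cmip in PWK, -0.020 to 0.43 for Emilin3 and -0.063 to 0.33 for Lpin3 in DE, and -0.0048 to 0.081 for Mphosph6 in F1. Without the filter Cmip was -0.0086, and with total-count scaling Lpin3 in PWK was 0.014. In PWK, leaving out a library gave -0.056 to 0.29, -0.22 to 0.69 and -0.48 to 0.43 for the Plcg1 peaks 0.4, 0.9 and 12.9 kb after the start. For the Plcg2 peaks 4.6 kb before and 10.4 kb after the start it gave -0.064 to 0.39 and -0.38 to 0.25. The last was 0.054 with total-count scaling and 0.000669 with at least 10 counts in every library. In DE the Plcg2 peak 23.1 kb before the start ran from -0.080 to 0.16, and was -0.089 with total-count scaling, which moved the median of all peaks from -0.01 to -0.22.

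Same-numbered EpiSC and DE libraries correlated at 0.141, 0.066, 0.151 and 0.187 in RNA. Each was the best match of its sample among the numbers both groups hold, so the RNA samples may be paired by number. In ATAC the same-numbered libraries correlated at 0.047, -0.013 and 0.028. The labels do not say whether the numbers pair the samples, and the main tests treated them as unpaired. With the replicate number as a block, Plcg2 fell by 2.60 and Emilin3 changed by -0.030. In paired differences the Plcg2 share changed by -18.3 percentage points (exact sign-flip p = 0.125, the smallest that 4 pairs can give). The paired summed ratios were 1.40 for Plcg1 and -0.19 for Plcg2 (exact sign-flip p = 0.25 for each, the smallest that 3 pairs can give). These paired tests could not reach 0.05. Near Plcg2, 7 peaks were called with the block and 7 without it on the same libraries. The Plcg1 peak 30.8 kb before the start was not called with the block (-2.18, edgeR adjusted p = 0.056). The Plcg2 peak 62.9 kb after the start was not called on these libraries with the block (-1.03, edgeR adjusted p = 0.197) or without it. The PWK accessibility comparison is limited by its 2 libraries. Whether PWK reads map to the build named, mm10, as well as B6 reads do was not tested for RNA or ATAC.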
